A study of Mus musculus with 6 samples.

Results

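The mouselincRNA probes of the array were described in mice with heart failure (HF) and in control mice, in heart, plasma and whole blood. They were chosen by name only, as the probes other than control spots whose name starts with mouselincRNA and ends with _P1. The rule found 691 of the 59729 probes, each printed as 1 spot on each array. The names hold 351 numbers, each standing for 1 region of the genome, and end with a + or a - sign. For 340 numbers both signs were on the array, and 11 numbers had 1 sign only, so that there were 343 + names and 348 - names.

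HF was induced in male C57BL/6J mice by isoproterenol, which activates β-adrenergic receptors, injected under the skin for 1 week at 40 mg/kg/day, while saline was injected in the control mice. No transgene or deletion is named for either group, so the model is one of drug-induced myocardial injury. Each mixture pooled RNA of 5 mice of 1 group and 1 tissue, although the extraction methods describe blood and plasma of a larger number of mice. Blood was drawn by removal of the eyeball, and plasma was centrifuged and filtered before extraction. The 6 mixtures are called control heart, HF heart, control whole blood, HF whole blood, control plasma and HF plasma. Each was hybridised to 1 array, so that no condition had a replicate, and no difference below carries a test, a p value or an SD. In these mixtures fewer cells of a type and less RNA per cell cannot be told apart.

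Long intergenic noncoding RNAs (lincRNAs) of this kind were found through chromatin. A gene transcribed by RNA polymerase II carries H3K4me3 at its promoter and H3K36me3 along its transcribed body, and a domain of both marks that lies outside known genes marks an intergenic transcription unit. The marks show where a domain is transcribed but not from which strand, which is why such a domain can be covered by a pair of names. LincRNAs are known for low abundance and for expression restricted to few tissues, and several act on chromatin or on neighbouring genes. Positions on mm9 were held for 107 of the 351 domains, spread over 19 chromosomes. They come from tables of changed LncRNAs and so are a selected part of the domains. Their length ran from 5025 to 51154 bases, with a median of 10200 bases. All 107 are listed on the plus strand whatever the sign in the name, so the sign is used here only as a part of the name.

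Levels are log2 signals after quantile normalization over the 6 arrays. Detection on an array required a spot that Feature Extraction marked as well above its background and that carried no outlier mark. The error given with a log2 fold change (HF over control) is the error within the arrays that the authors' software states for each spot, combined over both arrays, and it leaves out the spread between animals. Because 2 probes can bind their targets unequally, the level of 1 probe is not set against that of another.

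The arrays differed in ways that touch these dim probes. Both heart arrays, HF whole blood and HF plasma shared 1 scan date, and control whole blood and control plasma another, so scan date and HF cannot be told apart in blood. Of 1200 spots of negative control probes, between 0.50% (HF heart) and 12.4% (HF plasma) carried the mark of a signal well above background. The lowest level at which a probe was detected was 3.56 in control heart and 4.72 in HF heart, and between 4.64 and 5.78 on the blood arrays. Of the 691 mouselincRNA probes, 435 in control whole blood and 329 in HF plasma held the lowest value of the array and have no order there. None was saturated.

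Markers of the tissues were looked up among the mRNA probes that could be named here. All 15 probes of 6 cardiomyocyte genes (Myh6, Actc1, Tnnt2, Tnni3, Atp2a2 and Nppa) were detected on both heart arrays. In whole blood the control array detected 3 of these 15 and the HF array 15, and their summed level was 14.50 and 16.79. In plasma the control array detected 7 and the HF array 5, with summed levels of 14.40 and 14.43. A single Myh6 probe, at levels between 14.36 and 14.71 on the blood arrays and at 10.88 and 10.68 in heart, made up most of the sum in control whole blood and plasma. Actc1, Tnni3 and Nppa were not detected in control whole blood or in either plasma. The 5 probes of 4 erythroid genes (Hba-a1, Hba-a2, Hbb-b1 and Alas2) were detected in control plasma at a summed level of 18.82, and 3 of them in HF plasma at 13.54, where Alas2 was not detected. In whole blood their summed level was 18.89 in control mice and 18.77 in HF mice. The 4 probes of neutrophil granule genes (S100a9, Camp, Ngp and Ltf) had a summed level of 9.87 and 14.65 in control and HF whole blood, 10.20 and 13.90 in plasma, and 8.33 and 11.56 in heart. The 2 platelet probes (Gp5 and Gp1bb) had 13.28 in control plasma and 7.67 in HF plasma, and 12.77 and 11.61 in whole blood. Heart markers were thus present in HF whole blood as well as in heart, with Nppa at 2.65 in control and 15.52 in HF whole blood and Tnni3 at 2.65 and 12.31. Erythroid and platelet signal was lower in HF plasma than in control plasma. The part of these cell types in the changes of mouselincRNA probes was not tested.

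A minority of the mouselincRNA probes gave a signal above background in any tissue. In the heart 159 of 691 (23.0%, 95% Wilson interval 20.0% to 26.3%) passed in the control mixture and 77 (11.1%, 9.01% to 13.7%) in the HF mixture. In whole blood the control mixture had 99 (14.3%, 11.9% to 17.1%) and the HF mixture 138 (20.0%, 17.2% to 23.1%). In plasma the numbers were 145 (21.0%, 18.1% to 24.2%) and 172 (24.9%, 21.8% to 28.2%). These intervals take in only the sampling of probes. The share was lower than that of all 59709 probes other than negative controls on each of the 6 arrays, which was 47.3% and 35.1% in control and HF heart, 25% and 29.8% in whole blood, and 33.5% and 29.0% in plasma.

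The humanlincRNA probes, a further family with + and - names, had nearly the same share in control heart (21.9%) and control whole blood (14.1%) and a lower one in HF plasma (20.0%). The MM9LINCRNAEXON probes, whose name refers to lincRNA exons of mm9, had a higher share on every array, from 22.8% in control whole blood to 38.7% in control heart.

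**Figure D1:**
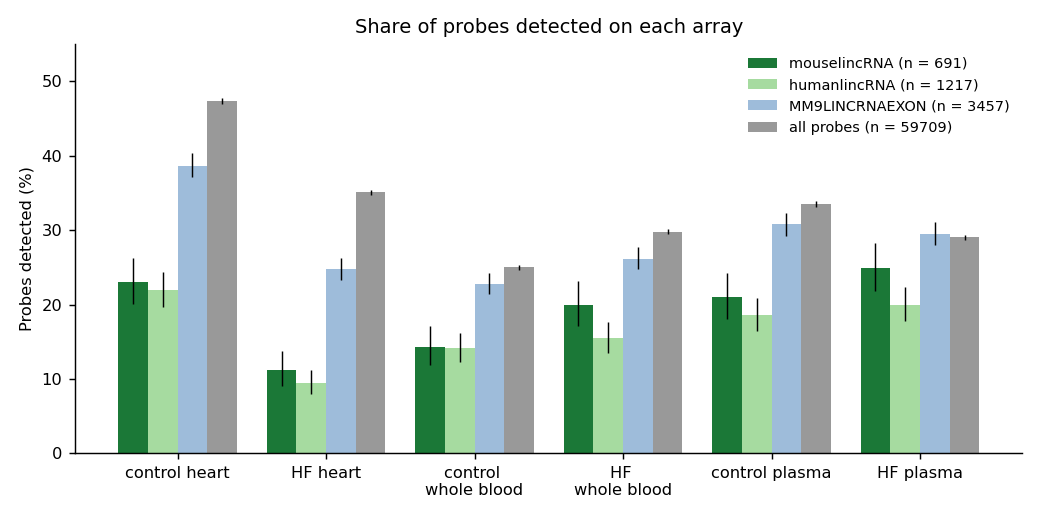
Share of probes detected on each of the 6 arrays, in percent, for the 691 mouselincRNA probes, 2 other lincRNA families and all probes other than negative controls, with 95% Wilson intervals that cover the sampling of probes only. The mouselincRNA share ran from 11.1% in HF heart to 24.9% in HF plasma and was below that of all probes on each array.

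The order of control and HF depended on the rule for detection in plasma. When a probe had to exceed the 99th percentile of the negative control spots of its own array, control plasma had 113 mouselincRNA probes and HF plasma 70. By the same rule the hearts had 145 (control) and 111 (HF) and whole blood had 87 (control) and 164 (HF), in the same order as by the mark of Feature Extraction.

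Over the 6 arrays together, 272 of the 691 probes were detected at least once and 419 (60.6%) never, against 39.9% never detected among all probes. Detection on a single array was seen for 105 probes, or 15.2% of the 691, close to 13.7% of all probes, and 47 probes were detected on all 6 arrays.

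The 105 probes seen on a single array were unevenly spread. HF plasma, the array with the most negative control spots above background, held 49 of them (46.7%, against 27.9% of all probes seen on a single array), and HF heart held 2. Control heart held 18 (17.1%, against 39.0% of all such probes). The other arrays held 19 (HF whole blood), 12 (control plasma) and 5 (control whole blood). By tissue, 112 probes were detected in heart, whole blood and plasma alike, 68 in plasma alone, 25 in heart alone and 24 in whole blood alone. The 68 were 25% of the 272 probes, while 10.1% of all probes detected at least once were detected in plasma alone. For heart alone the shares were 9.19% and 22.8%, and for whole blood alone 8.82% and 3.29%. Of the 68 plasma probes 7 were detected on both plasma arrays, and of the 24 whole blood probes none was detected on both whole blood arrays.

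Most probes detected in control whole blood were also detected in control plasma. This held for 94 probes, which were 94.9% of the 99 in control whole blood and 64.8% of the 145 in control plasma, against 94.3% and 70.4% over all probes. Between HF whole blood and HF plasma 86 were shared, or 62.3% of 138 and 50% of 172. For this pair of arrays the shares over all probes were not taken, so the smaller overlap cannot be called particular to the mouselincRNA probes. Between the hearts 74 were shared, which were 96.1% of the 77 in HF heart and 46.5% of the 159 in control heart. Over all probes these shares were 95.8% and 71.1%, so that the first was near the whole array and the second below it.

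Detection on both heart arrays and on no blood array was seen for 5 probes, mouselincRNA1081+, mouselincRNA0665-, mouselincRNA1339-, mouselincRNA0547+ and mouselincRNA0703+. The number of such probes over the whole array was not counted, here or for the converse below. MouselincRNA1081+ and mouselincRNA0547+ had high levels in HF heart only, at 11.44 and 6.60, while control heart lay at 3.98 and 4.0, under the lowest detected level of each blood array, so no bound is given for heart as a tissue. For the others the mean of both hearts was set against the mean over the blood arrays of the higher of the probe's own level and the lowest detected level. For mouselincRNA0665-, with levels of 5.99 in control heart and 5.83 in HF heart, heart was at least 1.58-fold higher, for mouselincRNA1339- at least 1.29-fold and for mouselincRNA0703+ at least 1.15-fold. The heart signal of these 3 probes was thus close to the limit of detection of the blood arrays. The converse, all 4 blood arrays and no heart array, held for mouselincRNA0208+ only. Its levels were 7.47 and 6.75 in control and HF whole blood and 6.70 and 9.70 in control and HF plasma, at least 11.5-fold higher in blood than in heart, where it lay at 3.35 and 3.08.

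The + and - names of a number were then compared. As a rule 1 name of a domain was detected and the other was not. Among the 340 pairs, 223 had a name detected on some array. For 83 of them only the + name was ever detected and for 93 only the - name. In 47 pairs both names were detected on some array, and in 36 of these on the same array. The 47 were 21.1% of the pairs with any name detected, against 24.7% for humanlincRNA and 38.6% for MM9LINCRNAEXON pairs. Such a share rises with the share of names detected, which was higher for MM9LINCRNAEXON on every array. Neither the rule of 1 detected name nor the difference between families can thus be called a trait of these domains. Over the arrays together the + name was detected in 33.6% of the pairs with the - name detected and in 41.5% of the others.

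On single arrays, both names were detected in 17 pairs in control heart and 2 in HF heart, in 9 and 16 in control and HF whole blood, and in 16 and 22 in control and HF plasma. These were between 2.70% (HF heart) and 14.9% (HF plasma) of the pairs with any name detected on that array. Knowing that the - name was detected said little about the + name. In control heart the + name was detected in 19.8% of the pairs with the - name detected and in 21.3% of the others. In control plasma these shares were 21.9% and 20.6%, and in HF whole blood 23.2% and 19.2%. HF heart had the widest ratio, with 4.88% and 11%, the first of which rests on 2 pairs.

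Among MM9LINCRNAEXON pairs, both names were detected in 25.4% of the pairs with any name detected in control heart, against 12.1% for mouselincRNA pairs and 14.1% for humanlincRNA pairs. A larger share of MM9LINCRNAEXON names was detected there. Their + name was detected in 38.4% of the pairs with the - name detected and in 35.3% of the others. The signs of the mouselincRNA names were detected at similar rates. In control heart these were 25% of the - names and 21.0% of the + names, and in HF plasma 26.7% and 23.0%.

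Of the 83 pairs with only the + name ever detected, 34 had it on at least 3 arrays. For the 93 pairs with only the - name this number was 44. The rest of these pairs had it on fewer than 3 arrays, and detection on a single array cannot show whether the detected name stays the same. The + name alone was detected on all 6 arrays in 13 pairs and the - name alone in 17. In 15 pairs the + name was detected alone on 1 array and the - name alone on another. MouselincRNA0413 was such a pair, with the + name alone on 1 array and the - name alone on 4, and mouselincRNA0263 had the + name alone on 4 arrays and the - name alone on 1. Both were named after their values were seen. Detection of both names on all 6 arrays was limited to mouselincRNA0706, on chromosome 17 of mm9 from 45861000 to 45866667.

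**Figure D2:**
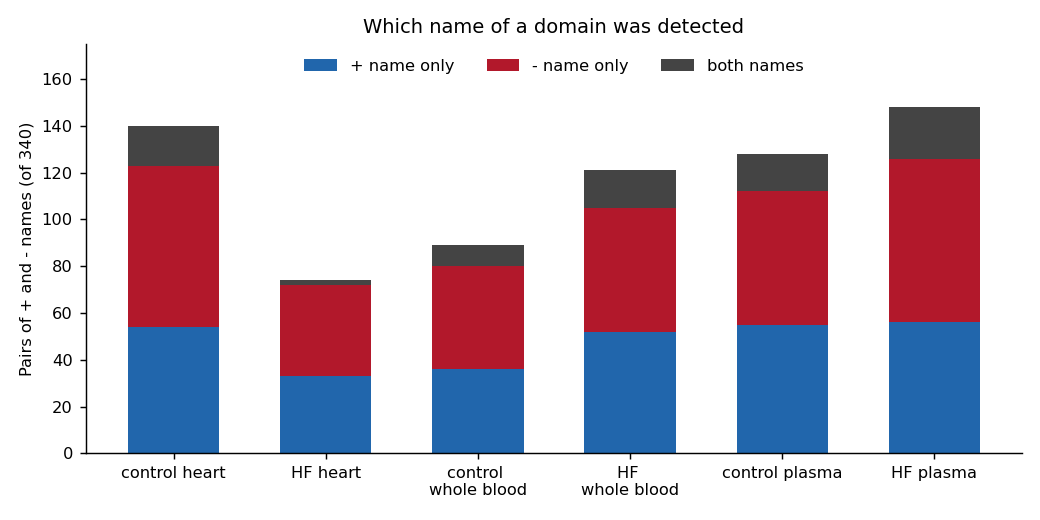
Number of the 340 pairs of + and - names with the + name only, the - name only or both names detected on each of the 6 arrays. Both names were detected in 2 pairs in HF heart and in 22 pairs in HF plasma, and 1 name alone in most pairs with any name detected.

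In the heart, the question was which domains differ between HF and control myocardium. Both heart arrays detected 74 mouselincRNA probes. HF heart exceeded control heart by 2-fold or more for 2 of them (2.70%), and control heart exceeded HF heart by that much for 20 (27%). Over the 20065 probes of the whole array with a signal in both hearts, 13.9 percent lay 2-fold or more higher in HF and 12.9 percent lay as much lower, which is 26.8 percent in either direction. The median log2 fold change of the 74 probes was -0.61, with quartiles of -1.11 and -0.22, while that of all probes was 0.02. The shift to lower signal was thus spread over most of the set, with 61 probes below 0 and 12 above. Of the 15 cardiomyocyte probes 6 were 2-fold or more higher in HF heart and 0 lower, at a median of 0.46. Those 6 were probes of Tnnt2 and Nppa only. Other Tnnt2 probes lay between -0.43 and 0.84, Myh6 at -0.20, Actc1 at 0.35, Tnni3 at 0.06 and Atp2a2 at -0.07 and 0.34. The platelet probes had a summed level of 9.75 in control heart and 7.88 in HF heart, and the neutrophil probes moved as given above. Their part in the shift was not tested.

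The other families of lincRNA probes were shifted the same way. The median was -0.83 for 110 humanlincRNA probes and -0.36 for 809 MM9LINCRNAEXON probes. Both signs of the mouselincRNA names took part, with a median of -0.57 for 34 + names and -0.65 for 40 - names. With a normexp background correction, 1 probe was 2-fold higher and 12 were 2-fold lower, and the median was -0.31. When no detection was required the median over all 691 probes was 0.01.

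MouselincRNA1081+ and mouselincRNA0547+ were the 2 probes that passed 2-fold toward higher signal. The level of mouselincRNA1081+ was 3.98 in control heart and 11.44 in HF heart, a log2 fold change of 7.46 with an error of 0.32, and between 2.63 and 4.37 on the blood arrays, where it was not detected. Its domain spans 33075 bases of chromosome 4, from 11820425 to 11853500. MouselincRNA0547+ had levels of 4.0 and 6.60, a log2 fold change of 2.60 with an error of 0.32, and its domain lies on chromosome 15 from 59590399 to 59609949. Both stood apart from the other 72 probes, of which the highest had a log2 fold change of 0.92. In control heart, however, neither exceeded the 99th percentile of negative control spots, and with normexp the log2 fold change was 4.86 for mouselincRNA1081+ and -0.88 for mouselincRNA0547+. Next in order were mouselincRNA0052- with 0.92 (error 0.21) and mouselincRNA0161- with 0.89 (error 0.20), both short of 2-fold.

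The largest differences to lower signal belonged to mouselincRNA0499+, mouselincRNA0158-, mouselincRNA1606- and mouselincRNA0305-. MouselincRNA0499+ lay at 10.06 in control heart and 8.01 in HF heart (log2 fold change -2.04, error 0.21). MouselincRNA0158- lay at 12.48 and 10.53 (-1.95, error 0.20), mouselincRNA1606- at 11.83 and 9.95 (-1.89, error 0.20) and mouselincRNA0305- at 11.62 and 9.80 (-1.82, error 0.20). All 4 were far above the limit of detection in both hearts, and each was also lower by 2-fold or more in HF whole blood. In plasma their log2 fold changes lay between 0.02 and 0.97, although the spots of mouselincRNA1606- and mouselincRNA0305- carried an outlier mark in HF plasma.

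A further 85 probes were detected in control heart only and 3 in HF heart only. Over all probes the order was the same, with 8174 in control heart only and 873 in HF heart only. The loss of 85 probes was for the most part one of detection and not of a measured fold. For such probes a bound was taken, the level on the array with detection against the higher of the probe's own level and the lowest detected level on the other array. The latter is the lowest level of any detected probe, so a stricter limit of detection could give smaller bounds, here and in blood. Since the lowest detected level was higher in HF heart, the bound reached 2-fold for 5 of the 85 (5.88%), and for 4.82% of the 8174 probes of the whole array detected in control heart only. The 5 were mouselincRNA0013-, mouselincRNA1623-, mouselincRNA0522-, mouselincRNA0543+ and mouselincRNA0763-. MouselincRNA0013- was at least 3.97-fold lower in HF heart and mouselincRNA1623- at least 3.29-fold lower. The 3 probes detected in HF heart only were mouselincRNA1419-, mouselincRNA0733- and mouselincRNA1341+, at least 4.86-fold, 3.71-fold and 3.55-fold higher there. The domain of mouselincRNA1419- lies on chromosome 7 from 137517941 to 137531341 and that of mouselincRNA0733- on chromosome 17 from 87626921 to 87637611.

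In whole blood, 76 mouselincRNA probes were detected on both arrays. By the 2-fold rule 17 (22.4%) had more signal in HF and 27 (35.5%) had less, while over all 11938 probes with a signal in both mixtures 21.4 percent had more and 26.8 percent had less, or 48.2 percent either way. The median log2 fold change was -0.31 for the 76 probes and -0.13 for all probes. The 44 - names had a median of 0.06 and the 32 + names one of -0.68. The differences were wider than in heart, with 23 of 76 probes at least 4-fold changed against 3 of 74. The whole array was wider as well, with 48.2% of all probes at least 2-fold changed in whole blood and 26.8% in heart. The 4-fold count was not taken over all probes. With the weaker flag of Feature Extraction for detection, the median was 0.17. Cardiomyocyte and neutrophil markers were higher in HF whole blood as given above, and their part in these values was not tested.

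MouselincRNA0161- and mouselincRNA0052- had the largest differences to higher signal. MouselincRNA0161- lay at 8.41 in control and 12.49 in HF whole blood (log2 fold change 4.08, error 0.21), and it was bright in both hearts, at 10.80 and 11.68. MouselincRNA0052- lay at 11.33 and 15.23 in whole blood (3.90, error 0.20), and its levels in the hearts were 6.57 and 7.49. The first thus had heart levels near its level in HF whole blood, while the second was at its highest in blood. MouselincRNA0077- followed with 9.36 and 12.17 (2.82, error 0.21) and mouselincRNA0771- with 6.31 and 9.09 (2.78, error 0.29).

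MouselincRNA0424-, mouselincRNA0013+, mouselincRNA0712- and mouselincRNA1040- were the lowest in HF whole blood relative to control. MouselincRNA0424-, on chromosome 13 from 90526091 to 90539315, lay at 9.88 in control and 5.94 in HF whole blood (-3.94, error 0.27). MouselincRNA0013+ lay at 9.18 and 5.31 (-3.87, error 0.35), mouselincRNA0712- at 11.34 and 7.73 (-3.61, error 0.21) and mouselincRNA1040- at 10.63 and 7.65 (-2.97, error 0.21). All 4 values in HF heart were lower too, with log2 fold changes of -1.52, -0.56, -1.70 and -1.12. In plasma the same probes changed little, with values between -0.55 and 0.67.

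The HF array alone detected 62 probes and the control array alone 23. Over all probes the order was the same, with 5841 and 2984. The bound reached 2-fold for 18 of the 62 (29.0%) and for 17 of the 23 (73.9%), against 28.3% and 66.6% over the whole array. HF whole blood had at least 9.15-fold more signal for mouselincRNA0077+ and at least 7.05-fold more for mouselincRNA1235-. MouselincRNA1467+, on chromosome 8 from 82591501 to 82609359, was at least 11-fold lower and mouselincRNA0892-, on chromosome 2 from 113818970 to 113829445, at least 9.45-fold lower. MouselincRNA0077+ was another probe with a high level in heart, 12.24 and 11.69, and it was detected in HF whole blood at 8.97 but not in control whole blood.

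In plasma, 101 mouselincRNA probes were detected on both arrays, more than in heart or whole blood. By the 2-fold rule 38 (37.6%) had more signal in HF and 19 (18.8%) had less. Over all 12377 probes with a signal in both plasma mixtures, 32.1 percent had more and 25.6 percent had less, or 57.7 percent either way. The median log2 fold change was 0.52 for the 101 probes, 0.21 for all probes, 0.59 for 153 humanlincRNA probes and 0.52 for 718 MM9LINCRNAEXON probes. Thus the shift was to higher signal in HF plasma in each of the 3 lincRNA families. The median was 0.55 for 46 + names and 0.52 for 55 - names.

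Toward higher signal in HF plasma, mouselincRNA0901-, mouselincRNA0706+, mouselincRNA0570- and mouselincRNA1244- had the largest computed differences. The level of mouselincRNA0901- was 5.08 in control plasma and 14.07 in HF plasma, a log2 fold change of 8.99 with an error of 0.33, and it was not detected in heart or whole blood, where it lay between 2.63 and 4.26. Its domain lies on chromosome 2 from 123486345 to 123492495. MouselincRNA0706+ lay at 9.08 and 16.74 in plasma (7.66, error 0.20), at 9.51 and 9.42 in whole blood, and at 6.79 and 6.32 in heart. MouselincRNA0570- lay at 6.53 and 13.31 in plasma (6.78, error 0.23) and mouselincRNA1244- at 5.20 and 11.79 (6.58, error 0.29). In each of the 4 probes HF plasma was the highest array, far above the other 5. In control plasma, however, mouselincRNA0901- and mouselincRNA1244- did not exceed the 99th percentile of negative control spots, so the sizes of these 2 differences depend on a value near background. With normexp they were 7.12 and 4.94, and that of mouselincRNA0570- was 5.88.

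The 2 probes lowest in HF plasma relative to control were mouselincRNA1103- and mouselincRNA0052-. MouselincRNA1103- lay at 12.97 in control plasma and 8.17 in HF plasma (-4.79, error 0.21), and at 12.65 and 13.19 in whole blood. MouselincRNA0052- lay at 11.86 and 7.69 (-4.17, error 0.21). MouselincRNA1400- had 9.26 and 5.61 (-3.65, error 0.32) and mouselincRNA0768+ 9.07 and 6.06 (-3.01, error 0.28). In whole blood all 4 lay above their control level in HF, so that the low value was that of HF plasma. Under the 99th percentile rule 24 probes were higher and 2 lower, and of these 4 only mouselincRNA1103- exceeded that limit in HF plasma. The erythroid and platelet markers were lower in HF plasma as given above, and their part in these values was not tested.

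In HF plasma only 71 probes were detected and in control plasma only 44. Unlike in heart and whole blood, all probes went the other way, with 4960 seen by the HF array alone and 7624 by the control array alone. The bound reached 2-fold for 67 of the 71 (94.4%) and for 12 of the 44 (27.3%), against 77.9% and 39.3% over the whole array. MouselincRNA1040+ was at least 121-fold higher in HF plasma, with levels of 4.58 and 11.56, and mouselincRNA0907+ at least 109-fold higher, with 2.86 and 11.41. The domain of mouselincRNA1040+ lies on chromosome 3 from 105098662 to 105119287 and that of mouselincRNA0907+ on chromosome 2 from 124597295 to 124602845. MouselincRNA1235-, on chromosome 5 from 135043618 to 135049118, was at least 23.9-fold lower in HF plasma, and mouselincRNA0735+ at least 12.1-fold lower.

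**Figure D3:**
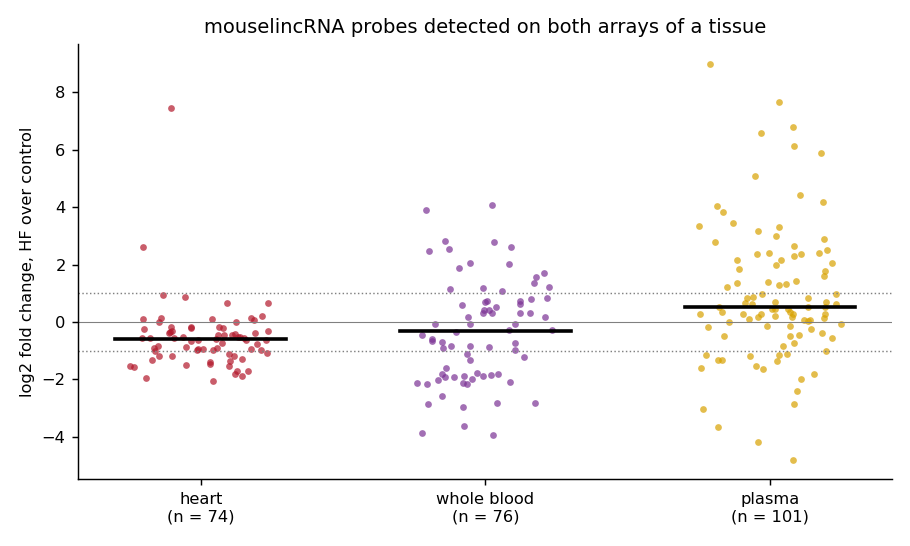
Log2 fold change (HF over control) of each mouselincRNA probe detected on both arrays of a tissue, with the median as a black bar and dotted lines at 2-fold. The medians were -0.61 in heart (74 probes), -0.31 in whole blood (76) and 0.52 in plasma (101), and 2 heart probes lay far above the others.

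Changes of the + and the - name of a domain could be set against each other in few pairs, since both names had to be detected on both arrays of a tissue. This was so for 2 pairs in heart, 5 in whole blood and 9 in plasma. In plasma the median absolute difference between both log2 fold changes was 3.64, and in 8 of 9 pairs the difference was at least 1 and larger than 2 times its error within the arrays. The same median was 1.35 for 15 humanlincRNA pairs and 1.78 for 117 MM9LINCRNAEXON pairs, of which 13 and 90 differed by more than 2 errors.

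MouselincRNA1592, on the X chromosome from 9324267 to 9332492, had the widest difference in plasma. The + name lay at 8.78 in control plasma and 14.93 in HF plasma (6.15, error 0.21), whereas the - name lay at 5.73 and 5.84 (0.12, error 0.34). The difference was 6.03 with an error of 0.40. MouselincRNA0706 followed, with 7.66 for the + name and 2.64 for the - name, a difference of 5.03 (error 0.30). Here both names were higher in HF plasma, but to an unequal degree. MouselincRNA0013, on chromosome 1 from 37066824 to 37073724, had -0.55 for the + name and 4.05 for the - name, so that the - name led, by a difference of -4.59 (+ minus -, error 0.30). In HF plasma, however, mouselincRNA1592- and mouselincRNA0013+ did not exceed the 99th percentile of negative control spots. The differences of 6.03 and -4.59 thus depend on a value near background, while both names of mouselincRNA0706 exceeded that limit in both plasmas.

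In 4 of the 9 pairs the signs were opposite, and in 2 of these, mouselincRNA0997 and mouselincRNA1377, both names were at least 2-fold changed in opposite directions. Opposite signs were about as frequent in the other families, with 6 of 15 humanlincRNA pairs (40%) and 51 of 117 MM9LINCRNAEXON pairs (43.6%) against 44.4% here. MouselincRNA0997 had -1.54 for the + name and 1.36 for the - name, and mouselincRNA1377 had -1.12 and 2.52. MouselincRNA0543 was the single pair whose names differed by less than 2 errors, with 0.84 and 0.53. Under the 99th percentile rule no pair with opposite signs was left. A difference between the names shows that both spots changed unequally, and with 1 array for each mixture it was not tested.

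**Figure D4:**
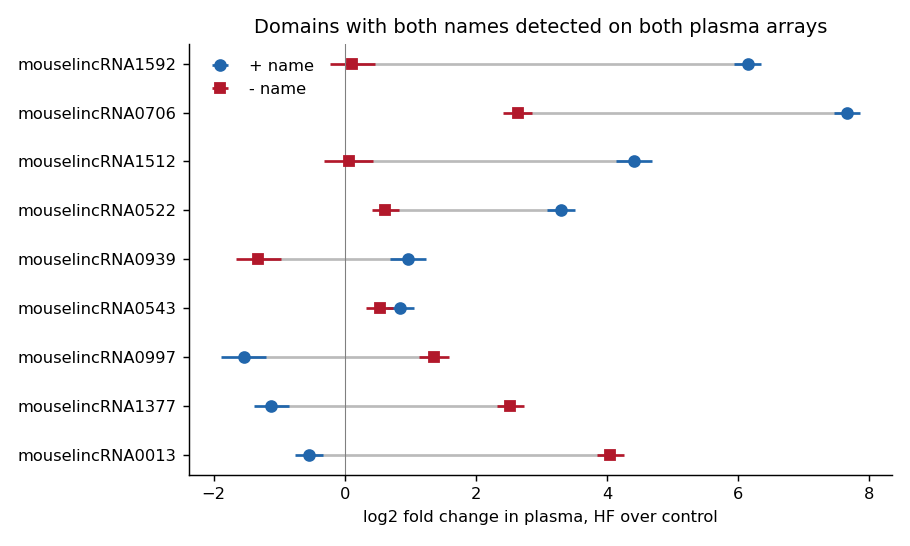
Log2 fold change in plasma (HF over control) of the + name (circles) and the - name (squares) in the 9 domains with both names detected on both plasma arrays, with bars for the error within the arrays. The names lay 6.03 apart in mouselincRNA1592 and 0.31 apart in mouselincRNA0543. In HF plasma mouselincRNA1592- and mouselincRNA0013+ did not exceed the 99th percentile of negative control spots.

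In whole blood the 5 pairs were mouselincRNA0013, mouselincRNA0484, mouselincRNA0522, mouselincRNA0706 and mouselincRNA0939, and in none were the signs opposite. For mouselincRNA0706 the + name had -0.08 and the - name -1.89, and for mouselincRNA0013 the values were -3.87 and -2.17. MouselincRNA0484, on chromosome 14 from 65246252 to 65256052, had -0.58 and -1.89, and mouselincRNA0522 had -0.83 and -2.11. MouselincRNA0939 was the only pair with both names above 0, at 0.33 and 0.80. The median absolute difference was 1.32 in whole blood. In heart the 2 pairs were mouselincRNA0077 and mouselincRNA0706. The + names had -0.56 and -0.47 and the - names 0.11 and 0.13, so that each pair had opposite signs at small values, and in 1 of the 2 pairs the difference was larger than 2 errors.

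Lastly, the 47 probes detected on all 6 arrays (6.80% of 691, against 12.6% of all probes) allowed the tissues to be compared within the same probes. The 3 comparisons share no array. HF heart held the lowest of the 6 levels for 35 of the 47 probes, and HF plasma the highest for 29. The same count was not taken over all probes, so these numbers cannot be called particular to the mouselincRNA probes. The range over the 6 arrays had a median of 4.08 on the log2 scale and ran from 1.17 to 10.42, the latter for mouselincRNA0706+.

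Heart and plasma went in opposite directions for 34 of the 47 probes (72.3%), against 59.9% of the 7527 probes of the whole array detected on all 6 arrays. For heart and whole blood this share was 42.6%, against 42.1%, and for whole blood and plasma it was 61.7%, against 49.95%. The most frequent combination, in 18 probes, was lower in HF heart and HF whole blood and higher in HF plasma, and 12 probes were lower in HF heart and higher in both blood fractions.

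At least 2-fold differences in all of the 3 tissues were seen for 3 of the 47 probes (6.38%), while 7.27 percent of all probes with a signal on each array met this rule. MouselincRNA1188- lay at 13.65 and 12.17 in control and HF heart, at 12.92 and 14.80 in whole blood and at 13.66 and 16.03 in plasma, with log2 fold changes of -1.48, 1.88 and 2.38. MouselincRNA0970- went the same way, with levels of 9.29 and 7.81, 8.85 and 9.99, and 9.32 and 12.11, and log2 fold changes of -1.48, 1.14 and 2.79. Both were thus lower in HF heart and higher in HF blood and plasma. MouselincRNA0130- was lower in each tissue, with levels of 6.86 and 5.68, 8.84 and 6.04, and 8.94 and 7.79, and log2 fold changes of -1.18, -2.81 and -1.15. The errors within the arrays of these 9 values were between 0.20 and 0.27. Each of the 3 fell short of the rule in some setting. With 75th percentile scaling mouselincRNA1188- had -0.94 in heart and 0.44 in whole blood and mouselincRNA0970- had 0.81 in whole blood, and with normexp mouselincRNA0970- had 0.92 in whole blood and mouselincRNA0130- had -0.60 in heart. The number of probes that met the rule was 5 with quantile normalization within each pair of arrays, 4 with 75th percentile scaling and 2 with normexp.

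**Figure D5:**
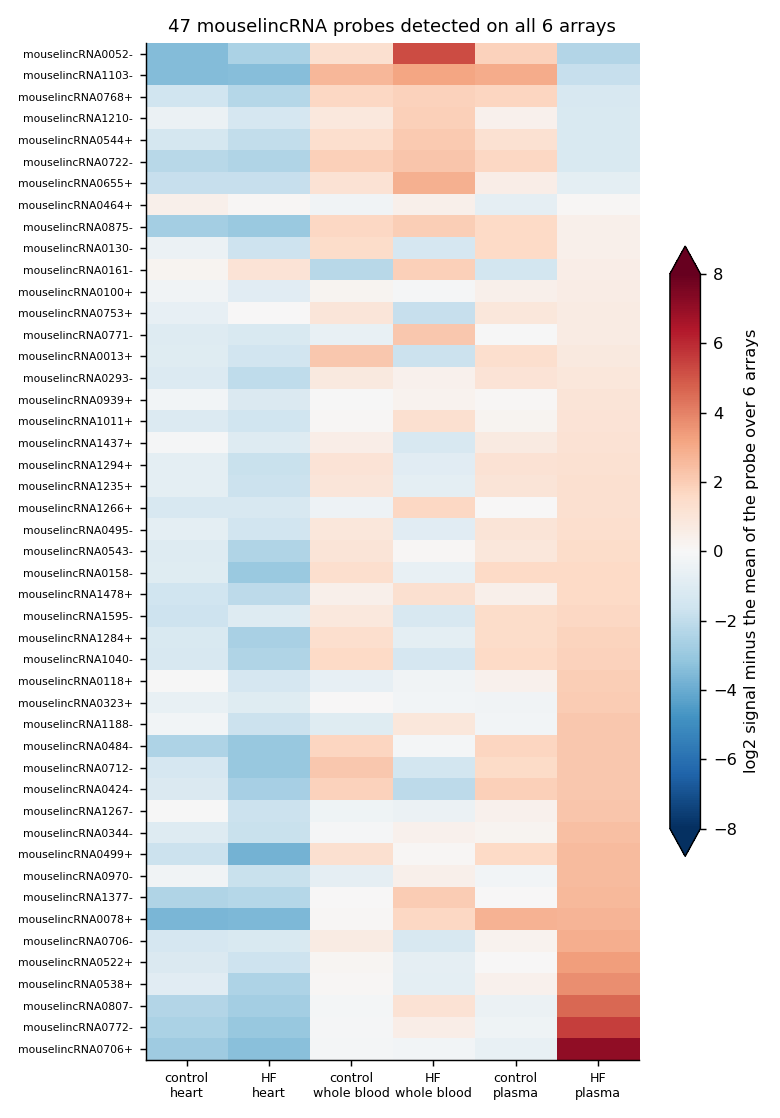
Log2 signal of the 47 mouselincRNA probes detected on all 6 arrays, each minus the mean of the probe over these arrays, ordered by the value in HF plasma. HF heart is the lowest array for 35 probes and HF plasma the highest for 29, with mouselincRNA0706+ the widest range, 10.42. The same count was not taken over all probes.

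Genes of histone methylation complexes were looked up beside the domains, for H3K4 and H3K36 and for H3K27, a repressive mark that does not define these domains. Of 29 such enzymes and subunits, 10 could be named here, with 13 probes. Of these probes 10 were detected on both heart arrays, with 0 at least 2-fold higher and 1 lower in HF heart, at a median log2 fold change of -0.23. In whole blood 7 were detected on both arrays, with 1 higher and 1 lower, and in plasma 7, with 3 higher and 1 lower. Dpy30, a subunit of H3K4 methyltransferase complexes, was the gene lower in HF heart, by 1 of its 3 probes (-1.32), and lower in HF whole blood by another (-2.10). The probes differed, since the first had -0.16 in whole blood and the second 0.09 in heart. The remaining probe had -3.81 in whole blood but was not detected in HF whole blood. Setd2, the methyltransferase for H3K36me3, was the gene higher in HF whole blood (2.13). In plasma the higher genes were Setd2 (1.37) and the H3K36 methyltransferases Whsc1 (1.46) and Whsc1l1 (4.11), and the lower one was Men1 (-2.20 by 1 probe and -0.75 by another), a further subunit of H3K4 methyltransferase complexes. These counts leave out probes detected on 1 plasma array only. Probes of Mll1 (-3.09), Dpy30 (-3.26 and -4.70) and Rbbp4 (-5.65) were detected in control but not in HF plasma. A probe of Mll3 (2.13) was detected in HF but not in control plasma. No H3K27 gene passed 2-fold with detection on both arrays of a tissue.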

How the data were processed

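RNA mixed from 5 mice was hybridised, after rRNA removal and random priming, to 1 single-colour Arraystar mouse LncRNA array for each of the 6 conditions. The authors read the images with Feature Extraction 11.0.1.1. The deposited scanner files give an intensity for each spot with its background subtracted, an error of that intensity, and flags of 0 or 1, on a design of build mm9. They were not normalized between arrays by the authors, and the deposited table of the whole series was not used here. The paper states quantile normalization, detection in both samples and a fold change of 2.0.

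Repeated spots of a probe were averaged as log2 intensity (61194 spots, 59729 probes), and the 6 arrays were then brought to 1 distribution by quantile normalization. The number of arrays limits the precision, and intervals cover the sampling of probes only. For a probe detected on 1 array, the bound sets its level against the higher of its own level on the other array and the lowest detected level there. The words at least refer to that limit only. The mouselincRNA probes, the marker lists and the rule for names were chosen with earlier results of these data known. Named were, in each tissue, the 4 largest differences each way among probes detected on both arrays, the 2 largest bounds each way and the 3 pairs with the widest difference, with up to 8 probes changed in all tissues and up to 3 limited to heart or to blood. Gapdh, Nppb and the marker lists were exempt from the rule, and the 5 chromatin genes that passed 2-fold were named after their values were seen, as were Mll1, Mll3 and Rbbp4. Sets of 5 or fewer, and the pairs in plasma, were named in full after their values were seen. Gene names came from the annotation column of the mRNA table, held here in part, so that hepatocyte and eye markers were not analysed here, and 1 further marker list is not reported here. Positions are those of the array annotation in the paper's tables of changed LncRNAs, used for position only. Alternatives were 75th percentile scaling, quantile normalization within pairs or within heart and blood, normexp (offset 50) on median signals, 3 other detection rules, no filter, all 6 arrays, and folds of 1.5 and 4. All calculations were first tested on simulated data. The software was limma 3.58.1 in R 4.3.3, and Python 3.11.15 with scipy 1.17.1, pandas 2.3.3 and numpy 2.4.6.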

Additional observations from a re-analysis of the deposited data

Results flagged for a closer look

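Some of the named probes were at least 2-fold changed in opposite directions in 2 tissues. With a single array per condition, none of these differences was tested. Between whole blood and plasma, mouselincRNA0052- had log2 fold changes of 3.90 and -4.17, which lie 8.07 apart, and mouselincRNA1592+ had -1.93 and 6.15, which lie 8.08 apart. MouselincRNA0013- had -2.17 and 4.05 (6.22 apart), and mouselincRNA0706- had -1.89 and 2.64 (4.53 apart). Between heart and whole blood, mouselincRNA1188- had -1.48 and 1.88 (3.36 apart) and mouselincRNA0970- had -1.48 and 1.14 (2.62 apart). Between heart and plasma the same 2 probes had -1.48 and 2.38 (3.85 apart) and -1.48 and 2.79 (4.27 apart). With 75th percentile scaling mouselincRNA1188- had -0.94 in heart and 0.44 in whole blood and mouselincRNA0970- had 0.81 in whole blood, where it had 0.92 with normexp, so that these did not keep 2-fold in every setting. HF plasma was the array with the most negative control spots above background, 12.4% of 1200, and in that array mouselincRNA0052- did not exceed the 99th percentile of these spots while the other 5 probes did.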

How the results depend on the processing

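No paired analysis was possible because each condition had 1 array, and no array could be left out. With 75th percentile scaling, 4 probes were higher in HF heart and the names of a pair differed by a median of 3.37 in plasma. That scaling gave the median of all probes as 0.20 in heart, -0.35 in whole blood and 0.09 in plasma. Quantile normalization within pairs, or within heart and within blood, gave 5 probes changed in all tissues. With normexp 1 was higher and 12 lower in HF heart (median -0.31) and 11 lower in HF plasma, 1 whole blood pair had opposite signs, and pair differences were 1.06 in whole blood and 2.67 in plasma. The log2 fold changes of mouselincRNA0547+ in heart and mouselincRNA1592- in plasma were then -0.88 and -0.14. With the weaker flag, 325, 195, 256, 277, 344 and 359 probes were detected (control and HF heart, whole blood, plasma). Higher and lower were then 5 and 49 in heart, 56 and 52 in whole blood (median 0.17), and 94 and 37 in plasma, with 11 changed in all tissues. Opposite pairs were 9, 9 and 24, and the plasma pair difference was 2.38. Above the 99th percentile of negative control spots, 70 probes were detected in HF plasma, 0 were higher in HF heart, 24 were higher and 2 lower in HF plasma (median 1.23), and the median in whole blood was -0.78. No plasma pair was then opposite, and the pair difference was 2.68. With no filter, 13 were higher and 65 lower in heart (median 0.012), 123 and 116 in whole blood (median -0.00092), 158 and 74 in plasma (median 0.054), and 21 changed in all tissues. Opposite pairs were then 159, 178 and 164, with pair differences of 0.33 in heart and 1.20 in plasma. Over probes detected on all 6 arrays, 0 were higher and 13 lower in heart with 1 opposite pair. In whole blood 16 were lower (median -0.080, pair difference 1.81), and in plasma 16 were higher and 9 lower, with 0 opposite pairs and a pair difference of 5.03. At 1.5-fold, 6 were higher and 38 lower in heart and 9 changed in all tissues. At 4-fold, 1 was lower in heart, 9 higher and 14 lower in whole blood, 6 lower in plasma and 0 changed in all tissues. The cause of these differences was not tested. The other 115 values moved by at most 1.5 times for counts, and for medians by less than the median error within the arrays. Among them the medians in whole blood and plasma were -0.53 and 0.29 with 75th percentile scaling, that in plasma was 0.32 with normexp, and the heart pair difference was 0.40 with 75th percentile scaling. Between 26 and 29 probes were lower in HF heart under 75th percentile scaling, both other quantile normalizations and the negative control rule, which also gave 111 detected in HF heart. With normexp 6 plasma pairs were opposite. Relative to all probes, the median of the probes in heart lay between -0.87 and -0.33 over the 5 normalizations, in whole blood between -0.21 and -0.17 and in plasma between 0.20 and 0.31. Signal close to background limits what can be said of the 419 probes never detected.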
